A study of Mus musculus with 61 samples.

Results

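Skeletal muscle of the inbred mouse strains AJ and NOD was compared directly, with 8 AJ libraries and 7 NOD libraries chosen by the strain name that opens each library's title. They belong to a set of 61 muscle libraries from 8 inbred strains, whose other members are B6, 129, NZO, Cast, PWK and WSB. Every library carried the same diet label of 45 percent fat, and the mice were fed a diet also labelled HFHS, for high fat and high sugar, so AJ and NOD share the diet and differ in strain. RNA was enriched for polyadenylated transcripts and sequenced. No agent, engineered allele or control group is labelled. The muscle that was taken, the age, the sex and whether the NOD mice were diabetic were not given in the sources used here. No label states that each library is its own animal, so the p-values cover only library-to-library spread, which may be technical.

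Muscle fibres burn fatty acids and glucose in mitochondria, and genes for fatty acid use rise in fasting and in response to fat-sensing nuclear receptors. Dysferlin, a membrane protein of the fibre surface, takes part in resealing torn membranes, and the A/J line is known for a retrotransposon insertion in its gene. The NOD line is known for autoimmune diabetes and for an unusual class II region of the major histocompatibility complex.

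The files held 20.8 M to 44.6 M counts per AJ library and 23.8 M to 37.0 M per NOD library. Levels are given as CPM, the count as a share of the TMM-scaled library size, and compare 1 gene between libraries, not genes with each other. Defining muscle transcripts were abundant in all 15 libraries: Ckm, the muscle creatine kinase, ran from 12128 to 13879 CPM in AJ and from 12562 to 14415 CPM in NOD. Xist, a female transcript, was high in AJ replicates 1 to 4 and NOD replicates 1 to 4, and Ddx3y, a male transcript, in the other 4 AJ and 3 NOD libraries. Of the genes checked, 19 split by set without overlap in both strains, 7 of them by over 1.5 times in 1 or both. Both strains' values are given within these sets for Vldlr, Acsl6, Car3, Hlf and Bhlhe41. The others of the 7 were Actc1 and Gbp10. The summed level of 12 hepatocyte markers ran from 31.5 to 1890 CPM in AJ and from 54.0 to 2321 CPM in NOD, and exceeded 1500 CPM in AJ replicate 7, NOD replicate 3 and NOD replicate 4. NOD replicate 4 stood apart in other genes too: Flnc, the actin cross-linker filamin C, was at 4353 CPM there and from 938 to 1163 CPM in the other NOD libraries. Of the 3 libraries over 1500 CPM, NOD replicates 3 and 4 were high in Xist and AJ replicate 7 in Ddx3y. Leaving them out therefore also changed the balance of these sets in both strains, and the part of each was not tested. When the 3 libraries over 1500 CPM were left out, 22 of the genes checked lost their calls. They were Acacb, Acsl6, Bhlhe41, Cacna1s, Chrna1, Gbe1, Gbp10, Hdac4, Hlf, Hsd17b7, Hspa1b, Itga7, Kcnj8, Lyve1, Mx1, Nfil3, Per1, Pln, Rtp4, Sod1, Tef and Trim63.

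Of 16682 genes tested, 3065 (18.4%) were called at an adjusted p under 0.05 by edgeR's quasi-likelihood F test with Benjamini-Hochberg adjustment. Of all genes tested, 1504 (9.02%) were higher in AJ and 1561 (9.36%) higher in NOD. Every list count below is to be read beside these shares. A difference of at least 1 log2 unit was called for 445 genes higher in AJ (2.67%) and 332 higher in NOD (1.99%), together 777 (4.66%). The 8 AJ and 7 NOD values did not overlap for 880 genes with every AJ library above every NOD library (5.28%) and for 938 genes with the opposite order (5.62%). For a single gene with complete separation, the exact two-sided permutation test gives its smallest possible p, 0.000311. Without NOD replicate 4, 2789 genes were called, and 2490 when the 3 libraries with over 1500 CPM of hepatocyte markers were left out. The 118 called genes named by the rule for this report kept the direction of their strain means within both sets. Their AJ and NOD values did not overlap in 101 of them among libraries high in Xist and in 113 among those high in Ddx3y. These genes were chosen by their calls in the same libraries, so the counts within sets are a description and no separate test. Differences below are log2 differences, AJ minus NOD, with the standard error, so a negative value is a lower level in AJ.

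**Figure D1:**
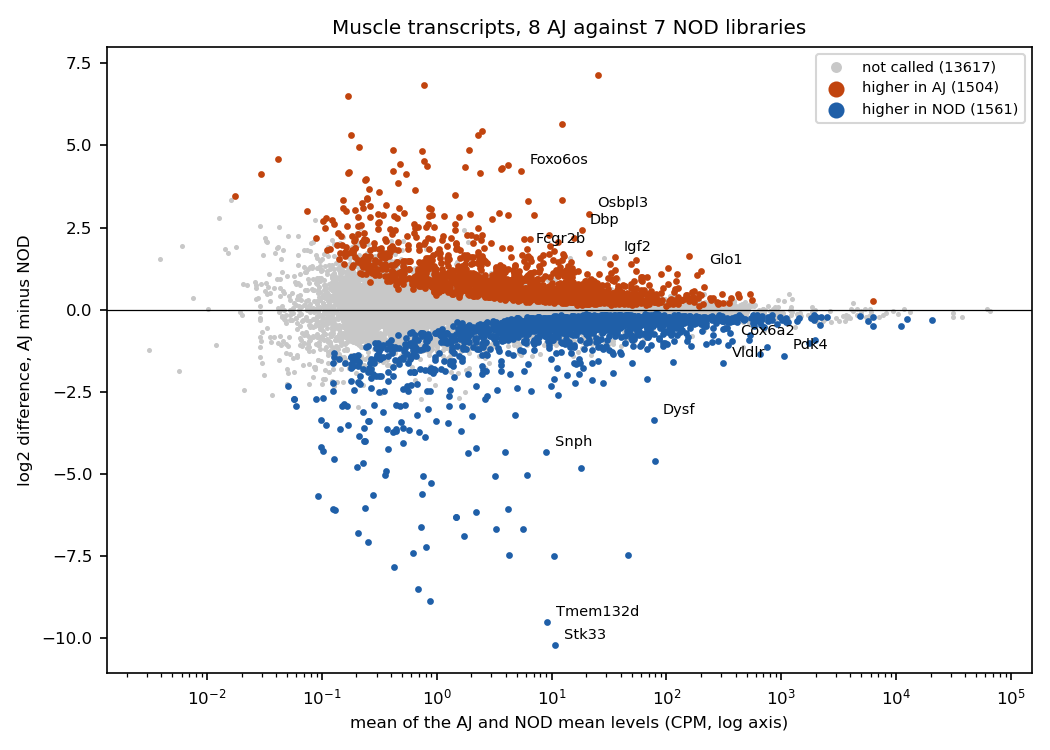
Log2 difference AJ minus NOD (vertical axis) against the mean level in CPM on a log axis (horizontal axis) for 16682 genes. The 1504 orange points were called higher in AJ and the 1561 blue points higher in NOD. Dysf, at -3.37, lies far below the bulk of genes of similar level, and Stk33, at -10.21, is the lowest labelled point.

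Dysf (ENSMUSG00000033788, chr6:84008590-84211060, plus strand, GRCm38), which encodes dysferlin, ran from 11.1 to 16.3 CPM in AJ with a median of 14.1. In NOD it ran from 118 to 234 CPM with a median of 127. Every AJ library lay far below every NOD library. The difference was -3.37 ± 0.10 (adjusted p = 5.29e-34), a 10.3-fold lower level in AJ, and -3.20 without NOD replicate 4, which held the highest value. The AJ mean was the lowest of the 8 strains, the other 6 strain means running from 73.9 CPM in B6 to 143 CPM in 129. Reads of 2 transcripts annotated on the opposite strand of Dysf could not be told apart from its own.

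Some other membrane repair genes were also called. Among 23 tested members of the list, Dysf included, 6 were higher in NOD and 0 higher in AJ by edgeR, beside 9.36% and 9.02% of all genes tested. In either direction 26.1% of the list was called, beside 18.4% of all genes. DESeq2 and limma called 6 members each in either direction, and 8 had an unadjusted p under 0.05. Without NOD replicate 4, 4 were higher in NOD and 2 higher in AJ. Capn3, a muscle protease whose loss causes a limb-girdle dystrophy, had an AJ median of 110 CPM and a NOD median of 205 CPM without overlap (-0.84 ± 0.09, adjusted p = 1.56e-10). Trim72, known as MG53 and a partner in resealing, ran from 93.8 to 123 CPM in AJ and from 137 to 223 CPM in NOD (-0.52 ± 0.11, adjusted p = 0.000173). Its difference was -0.42 without NOD replicate 4, which held the highest value. Syt7, a calcium sensor of vesicle fusion, differed by -0.56 ± 0.14 (adjusted p = 0.00314). Ahnak, a giant protein that associates with dysferlin, was not called with all libraries (0.32, adjusted p = 0.220). It ran from 1254 to 1548 CPM in AJ and from 775 to 917 CPM in 6 NOD libraries, but stood at 2538 CPM in NOD replicate 4. Without that library Ahnak was higher in AJ by 0.68 (adjusted p = 0.000387).

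**Figure D2:**
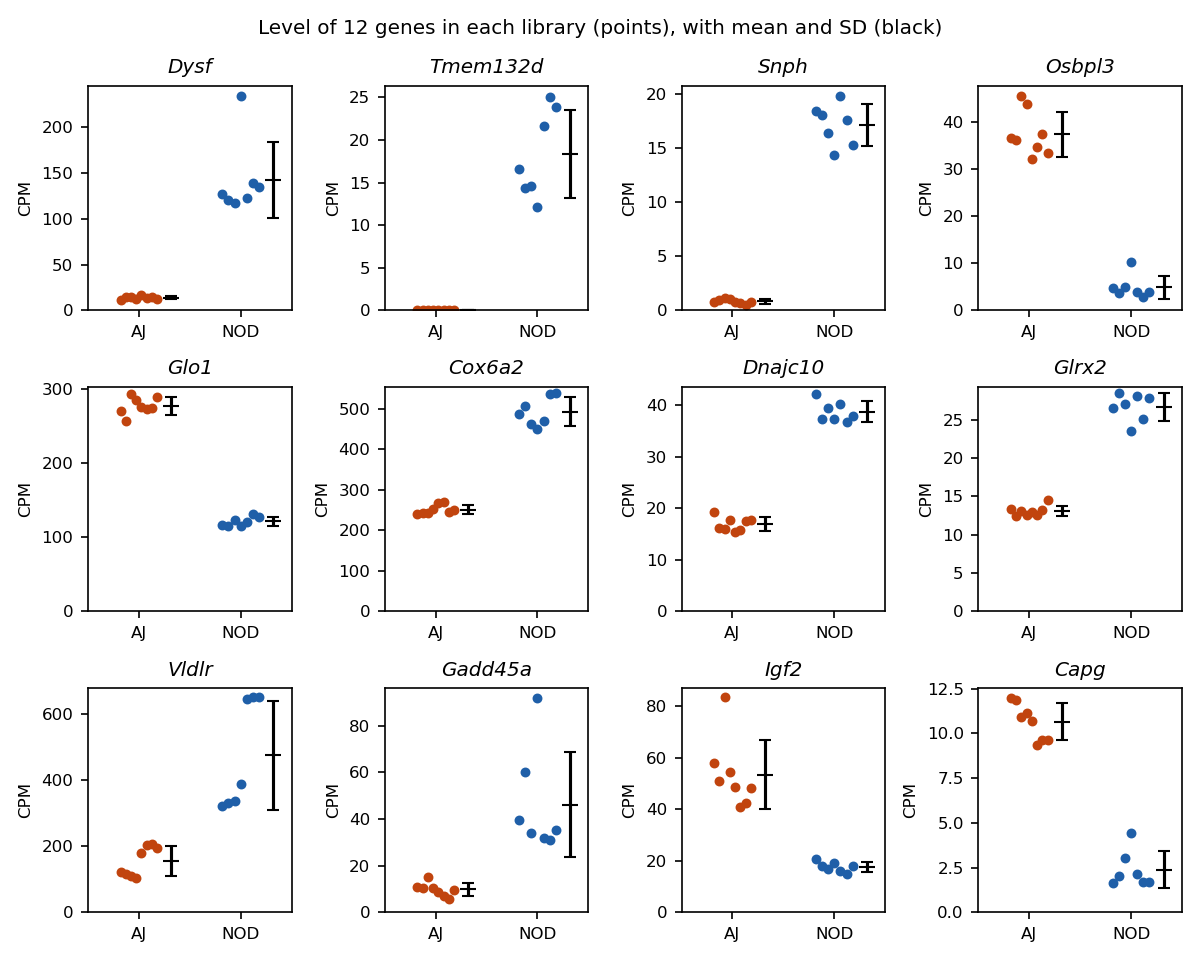
CPM in each library (points) for 12 genes, with the mean and SD of each strain in black and a vertical axis from 0. In all 12 panels the AJ and NOD points do not overlap, and 1 NOD point at 234 CPM stands above the others for Dysf.

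Genes of the dystrophin complex, which links the fibre's skeleton to the matrix, changed in both directions: of 17 tested, 6 were higher in AJ and 5 higher in NOD. That is 64.7%, beside 18.4% of all genes. Sspn, the tetraspanin-like sarcospan, had AJ values from 83.9 to 104 CPM and NOD values from 38.6 to 49.9 CPM. All AJ values lay above all NOD values (1.00 ± 0.12, adjusted p = 2.19e-09). Sntb2, a syntrophin, was also higher in AJ (0.70 ± 0.11, adjusted p = 2.62e-06). Nos1, the neuronal nitric oxide synthase anchored at this complex, ran from 46.2 to 80.5 CPM in AJ and from 118 to 133 CPM in NOD (-1.02 ± 0.15, adjusted p = 7.18e-07). Of the sarcoglycans, Sgcb was lower in AJ (-0.58) and Sgca was higher (0.33). Dmd, dystrophin itself, did not pass the test. Sspn and Nos1 overlap transcripts on the other strand.

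Fibre type genes were called at shares near that of all genes, 23.5% of the fast list and 17.6% of the slow list, beside 18.4%. In the fast fibre list 1 of 17 members was higher in AJ and 3 were higher in NOD. In the slow fibre list 2 of 17 were higher in AJ and 1 in NOD, and the count of 2 was 1 without AJ replicate 2 or any 1 of NOD replicates 2, 5, 7 and 8. Myh4, the fastest myosin heavy chain, spanned 57830 to 66452 CPM in AJ and 57443 to 64907 CPM in NOD, and the 2 ranges overlapped almost fully (0.02 ± 0.09, adjusted p = 0.935). Myh7, the slow myosin, had medians of 793 CPM in AJ and 851 CPM in NOD (0.07 ± 0.27, adjusted p = 0.890). Myh1, a fast IIx form, was lower in AJ without overlap (-0.50 ± 0.12, adjusted p = 0.00124). Smtnl1, a smoothelin-like regulator of contraction kept in the slow fibre list, was also lower in AJ (-0.88 ± 0.14, adjusted p = 3.44e-06). Casq2, the slow and cardiac calsequestrin that stores calcium, was higher in AJ (0.74 ± 0.25, adjusted p = 0.0317), a call that was lost without AJ replicate 2 or any 1 of NOD replicates 2, 5 and 7 (adjusted p up to 0.0714). Of 21 calcium handling genes 2, Casq2 and the calcium pump inhibitor Pln, were higher in AJ and 4 in NOD. That is 28.6%, beside 18.4% of all genes. Pln was not called without NOD replicate 8 (adjusted p = 0.0611) or without those high in hepatocyte markers (adjusted p = 0.0516). The count of 4 was 2 without any 1 of AJ replicates 1, 2 and 7 and NOD replicates 2 and 8. Fkbp1a, which steadies the calcium release channel, was lower in AJ without overlap (-0.33 ± 0.05, adjusted p = 2.48e-06).

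Genes of fatty acid oxidation were mostly lower in AJ. Of 25 tested members, 20 were higher in NOD and 1 was higher in AJ, with a median of -0.35 against -0.0013 over all genes tested. Fabp3, the fatty acid carrier of muscle, ran from 214 to 314 CPM in AJ with a median of 275, and from 327 to 526 CPM in NOD with a median of 461. The ranges did not overlap (-0.70 ± 0.15, adjusted p = 0.000258). Acadl, the long-chain acyl-CoA dehydrogenase, had medians of 203 CPM in AJ and 310 CPM in NOD without overlap (-0.55 ± 0.10, adjusted p = 2.57e-05). Acadm, the medium-chain enzyme, differed by -0.41 ± 0.09 (adjusted p = 0.000556) and Hadha, a subunit of the mitochondrial trifunctional protein, by -0.34 ± 0.06 (adjusted p = 3.75e-05). Cpt1b, the gate for fatty acid entry into mitochondria, overlapped between strains (-0.29 ± 0.09, adjusted p = 0.0204) and lost its call without NOD replicate 8 (adjusted p = 0.0675). The member higher in AJ was Acsl6, an acyl-CoA synthetase (0.46 ± 0.14, adjusted p = 0.0173). It was not called without NOD replicate 3 (0.40, adjusted p = 0.0523) or without the 3 libraries high in hepatocyte markers (0.28, adjusted p = 0.253). Its libraries high in Xist held 30.3 to 38.3 CPM in AJ and 23.3 to 27.1 CPM in NOD, and those high in Ddx3y 49.1 to 53.9 CPM and 37.1 to 40.5 CPM.

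Of 20 regulators and targets of the fasting response 7 were higher in NOD and 1 was higher in AJ. Pdk4, a kinase that inhibits pyruvate dehydrogenase, ran from 346 to 854 CPM in AJ with a median of 591. In NOD it ran from 1098 to 2597 CPM with a median of 1351. All AJ libraries were below all NOD libraries (-1.40 ± 0.28, adjusted p = 0.00017). Vldlr, a receptor for triglyceride-rich lipoproteins, had AJ values from 105 to 206 CPM and NOD values from 321 to 650 CPM (-1.62 ± 0.22, adjusted p = 5.32e-08). Vldlr also differed between the sets within each strain. Libraries high in Xist held 105 to 121 CPM in AJ and 321 to 386 CPM in NOD, and those high in Ddx3y 181 to 206 CPM and 645 to 650 CPM. Ppargc1a, the coactivator PGC-1 alpha that drives mitochondrial genes, had medians of 56.8 CPM in AJ and 132 CPM in NOD without overlap (-1.12 ± 0.29, adjusted p = 0.00323). Ucp3, a muscle uncoupling protein, was lower in AJ as well (-0.77 ± 0.21, adjusted p = 0.00544), as was Plin5, a coat protein of lipid droplets (-0.76 ± 0.18, adjusted p = 0.00141). Lpin1, a phosphatidate phosphatase, had AJ values from 239 to 301 CPM and NOD values from 353 to 440 CPM (-0.57 ± 0.12, adjusted p = 0.000407). The member higher in AJ was Ucp2 (0.70 ± 0.25, adjusted p = 0.0388), a mitochondrial carrier, whose call was lost without any 1 of AJ replicates 1, 2, 3, 4 and 8 and NOD replicates 1, 5, 7 and 8.

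The called genes of the respiratory chain and the citric acid cycle were lower in AJ, apart from Suclg2. Of 79 nuclear genes of oxidative phosphorylation, 34 were higher in NOD and 0 higher in AJ by edgeR, with a median of -0.20 and 74 of 79 differences below 0. At an unadjusted p under 0.05 there were 54 in all, and DESeq2 called 40 and limma 36. With 1 library left out at a time, edgeR called 25 to 41 higher in NOD and 0 higher in AJ. Cox6a2, the muscle form of a cytochrome oxidase subunit, differed most: it ran from 241 to 270 CPM in AJ and from 450 to 538 CPM in NOD without overlap (-0.97 ± 0.06, adjusted p = 1.44e-18). The AJ mean was the lowest and the NOD mean the highest of the 8 strains. The next largest member, Atp5e, a small subunit of ATP synthase, differed by -0.40 ± 0.09 (adjusted p = 0.000901). Of 13 mitochondrially encoded genes 2 were called, both lower in AJ, among them mt-Cytb (-0.29 ± 0.09, adjusted p = 0.0114). The other, mt-Nd3 (-0.36), was not called once its near-identical copy was added (-0.19, adjusted p = 0.198), and 2 of 13 is 15.4%, beside 18.4% of all genes. In the citric acid cycle, 8 of 18 genes were higher in NOD and 1 higher in AJ. Suclg1, the shared subunit of succinyl-CoA ligase, was lower in AJ (-0.35 ± 0.07, adjusted p = 0.000109), while its GTP-specific partner Suclg2 was higher (0.30 ± 0.09, adjusted p = 0.0158). The call of Suclg2 was lost without NOD replicate 5 (adjusted p = 0.0549).

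Of 31 genes of glycolysis and glycogen 10 were higher in NOD and 0 higher in AJ by edgeR. DESeq2 and limma called 11 each, 16 had an unadjusted p under 0.05, and edgeR called 6 without AJ replicate 8. Aldoa, the muscle aldolase, had medians of 9259 CPM in AJ and 13075 CPM in NOD without overlap (-0.50 ± 0.09, adjusted p = 4.31e-05). In the insulin signalling list 1 of 30 was higher in AJ and 4 were higher in NOD, beside 9.02% and 9.36% of all genes. Tbc1d1, which holds glucose transporters inside the cell until it is phosphorylated, ran from 47.1 to 87.3 CPM in AJ and from 107 to 148 CPM in NOD (-1.02 ± 0.23, adjusted p = 0.000899). Socs3, an inhibitor of cytokine and insulin signals, was the member higher in AJ (1.59 ± 0.50, adjusted p = 0.0184), with overlapping values.

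Lipid synthesis genes were variable and gave 3 of 20 members higher in AJ and 2 higher in NOD. Fasn, fatty acid synthase, ran from 42.6 to 526 CPM in AJ and from 26.8 to 255 CPM in NOD. The wide ranges overlapped (1.63 ± 0.57, adjusted p = 0.0354), and the call was lost in 12 alternatives. Scd2, a stearoyl-CoA desaturase, lost its call when reads of its near-identical copy Scd1 were added (0.49, adjusted p = 0.477). Without NOD replicate 4, 1 member was higher in AJ. Of the 2 members higher in NOD, Lpin1 kept its call, whereas Acacb, an acetyl-CoA carboxylase that restrains fat burning, lost its call in 17 alternatives (-0.25 ± 0.09, adjusted p = 0.0496). Of 23 cholesterol synthesis genes 1 was called, Hsd17b7 (0.53 ± 0.17, adjusted p = 0.0224), and it was not called without AJ replicate 7, without either of NOD replicates 1 and 2, or without the libraries high in hepatocyte markers (0.45, adjusted p = 0.11). Adipoq, the fat cell hormone adiponectin, spanned 8.25 to 41.9 CPM in AJ and 5.07 to 64.6 CPM in NOD and did not pass the test (-0.04 ± 0.48, adjusted p = 0.968). Of 14 adipocyte markers 1 was called, Car3, a carbonic anhydrase that muscle also makes (-1.03 ± 0.27, adjusted p = 0.00447). Libraries high in Xist held 1188 to 1496 CPM of Car3 in AJ and 2453 to 3337 CPM in NOD, and those high in Ddx3y 921 to 1079 CPM and 1465 to 1780 CPM. Ucp1, the brown fat uncoupler, was higher in AJ (4.35 ± 1.38, adjusted p = 0.0196) through 2 libraries at 13.5 and 9.47 CPM, the other 6 running up to 1.94 CPM, and was not called without either of them (adjusted p = 0.0686 and 0.0530).

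**Figure D3:**
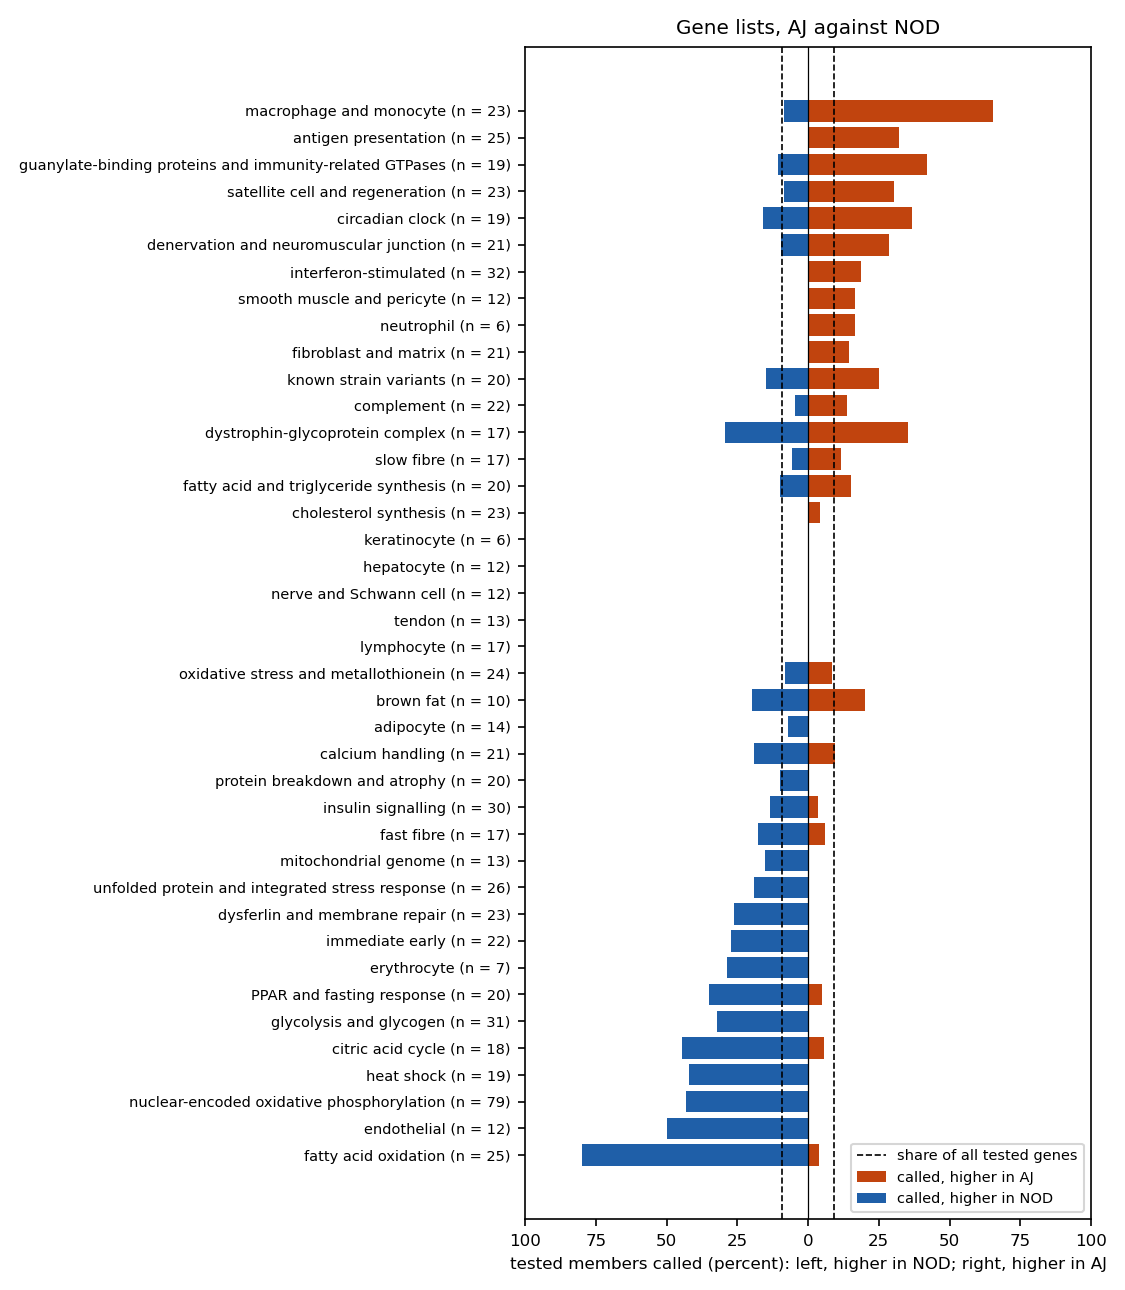
Share of the tested members of each of 40 gene lists that were called higher in AJ (orange, to the right) or higher in NOD (blue, to the left), in percent, with the number tested in brackets. Dashed lines mark the shares over all genes tested, 9.02% and 9.36%. Fatty acid oxidation reaches furthest to the NOD side, 20 of 25, and the macrophage list furthest to the AJ side, 15 of 23.

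The circadian clock list held 7 of 19 genes higher in AJ and 3 higher in NOD (52.6% called, beside 18.4% of all genes). Dbp, an output transcription factor of the clock, ran from 26.4 to 34.4 CPM in AJ with a median of 30.6, and from 2.04 to 10.8 CPM in NOD with a median of 5.39. AJ values were narrow and above all NOD values (2.43 ± 0.61, adjusted p = 0.00239). Per3, a period gene, had medians of 23.5 CPM in AJ and 10.1 CPM in NOD without overlap (1.19 ± 0.30, adjusted p = 0.00231). Nr1d1, the repressor REV-ERB alpha, was higher in AJ (0.63 ± 0.19, adjusted p = 0.0140). Tef, a relative of Dbp, was higher too (0.48 ± 0.12, adjusted p = 0.00197). Arntl, which encodes the activator BMAL1, went the other way, from 15.5 to 21.3 CPM in AJ and from 29.5 to 46.5 CPM in NOD (-0.90 ± 0.26, adjusted p = 0.0102). The repressor Nfil3 was also lower in AJ (-0.80 ± 0.29, adjusted p = 0.0462). The hour of tissue collection was not given in the sources used here, and its part in the result was not tested.

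Several clock calls lay close to the threshold. Per1 (0.89 ± 0.32, adjusted p = 0.0465), Bhlhe41 (0.95 ± 0.35, adjusted p = 0.0486) and Nfil3 lost their calls in 11 to 16 alternatives each. With 1 library left out at a time, the difference stayed between 0.78 and 1.01 for Per1, between 0.82 and 1.10 for Bhlhe41 and between -0.89 and -0.71 for Nfil3. Without the 3 libraries high in hepatocyte markers the list held 3 genes higher in AJ, and Tef (adjusted p = 0.0554) and Hlf (adjusted p = 0.201) were no longer called. That omission also changed the balance of libraries high in Xist and in Ddx3y, and the part of each was not tested. Hlf, a relative of Dbp, held 7.94 to 12.6 CPM in AJ and 5.20 to 6.74 CPM in NOD in libraries high in Xist, and 17.5 to 21.2 CPM and 10.3 to 13.4 CPM in those high in Ddx3y. Bhlhe41, a repressor of the clock, separated the strains within both sets: libraries high in Xist held 24.9 to 33.9 CPM in AJ and 9.42 to 15.5 CPM in NOD, and libraries high in Ddx3y 50.05 to 53.2 CPM and 30.4 to 35.4 CPM.

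The promoters of 3 clock genes that were higher in AJ are shown because they hold the letters bound by the clock's factors. Each is the 250 bases before the RefSeq start on GRCm38.p6, the B6 reference and not the AJ or NOD sequence, read 5′ to 3′ on the gene's strand. Capitals mark the E-box CACGTG, the D-box TTATGTAA and the half-site AGGTCA, searched on both strands. Per3 held 2 D-boxes, while Per1 and Tef held 1 E-box each, and Per1 also held 1 half-site.
Per3, chr4:151044666-151044915, minus strand: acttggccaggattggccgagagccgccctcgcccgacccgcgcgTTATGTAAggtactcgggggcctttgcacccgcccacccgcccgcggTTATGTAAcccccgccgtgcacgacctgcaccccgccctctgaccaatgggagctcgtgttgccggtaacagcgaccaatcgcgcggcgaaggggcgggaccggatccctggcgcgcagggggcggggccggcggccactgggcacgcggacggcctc
Per1, chr11:69098699-69098948, plus strand: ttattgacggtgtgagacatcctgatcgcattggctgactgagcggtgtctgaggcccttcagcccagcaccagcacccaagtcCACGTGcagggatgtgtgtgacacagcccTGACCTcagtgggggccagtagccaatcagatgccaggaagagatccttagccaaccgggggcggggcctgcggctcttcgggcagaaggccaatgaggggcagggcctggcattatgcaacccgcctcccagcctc
Tef, chr15:81802423-81802672, plus strand: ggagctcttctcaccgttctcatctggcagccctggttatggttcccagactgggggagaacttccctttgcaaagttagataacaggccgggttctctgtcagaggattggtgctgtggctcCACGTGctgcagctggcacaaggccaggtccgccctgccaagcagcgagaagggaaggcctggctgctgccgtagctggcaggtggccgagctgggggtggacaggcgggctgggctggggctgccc
Over 32851 promoter windows of this length, 6.02% held the E-box, 0.819% the D-box and 14% the half-site. Of the 7 clock genes higher in AJ 3 held an E-box and 1 a D-box, and of the 7 not called 2 held an E-box. The half-site stood in 1 of the 7 higher in AJ, in 1 of 2 matched promoters of genes higher in NOD and in 1 of the 7 not called. A match is a description of these letters, not a bound site.

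Several stress and early response genes were lower in AJ. Of 22 immediate early genes 6 were higher in NOD and 0 higher in AJ by edgeR. That is 27.3%, beside 18.4% of all genes, and 3 were higher in NOD without NOD replicate 8. DESeq2 called 6 and limma 5, and 7 had an unadjusted p under 0.05. Nr4a3, a nuclear receptor induced by exercise and adrenaline, ran from 6.68 to 33.96 CPM in AJ and from 28.1 to 73.8 CPM in NOD. The AJ median of 12.2 CPM compares with 56.4 CPM in NOD, and AJ replicate 4 reached into the NOD range (-1.94 ± 0.42, adjusted p = 0.000398). Atf3, a stress-induced repressor, had its highest AJ value, 19.5 CPM, in the same library (-1.67 ± 0.39, adjusted p = 0.00119). Jun, a subunit of the AP-1 factor, differed by -0.97 ± 0.16 (adjusted p = 4.1e-06). Among 19 heat shock genes 8 were higher in NOD and 0 higher in AJ by edgeR. When the 3 libraries high in hepatocyte markers were left out, 3 were called. DESeq2 and limma also called 8 each, and 10 had an unadjusted p under 0.05. Hspb6, a small heat shock protein of muscle, kept separate ranges, 363 to 447 CPM in AJ and 535 to 808 CPM in NOD (-0.76 ± 0.13, adjusted p = 6.56e-06). Of 26 genes of the unfolded protein and integrated stress response 5 were higher in NOD and 0 in AJ by edgeR, DESeq2 and limma calling 5 each, with 11 at an unadjusted p under 0.05. The edgeR share was 19.2%, close to the 18.4% of all genes. That count of 5 was 2 without the 3 libraries with over 1500 CPM of hepatocyte markers or without NOD replicate 4, and 3 without any 1 of 8 others.

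The ubiquitin ligases of muscle wasting were both lower in AJ. Fbxo32, or atrogin-1, ran from 301 to 420 CPM in AJ and from 462 to 901 CPM in NOD without overlap (-0.94 ± 0.27, adjusted p = 0.00915). Trim63, or MuRF1, had medians of 224 CPM in AJ and 362 CPM in NOD, and reached 1098 CPM in NOD replicate 4 (-1.08 ± 0.37, adjusted p = 0.0303). Without that library the difference was -0.71 (adjusted p = 0.188). Its call was also lost without AJ replicate 2 or 5. They were the 2 members called of 20 in the protein breakdown list, beside 18.4% of all genes tested.

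Genes of the neuromuscular junction and of regenerating fibres leaned to AJ, with 6 of 21 and 7 of 23 members higher there and 2 of each list higher in NOD. The shares called were 38.1% and 39.1%, beside 18.4% of all genes. The NOD counts of 2 rested on Hdac4 and Itga7, whose calls were lost in 15 and 5 alternatives. Chrng, the fetal subunit of the acetylcholine receptor, ran from 0.347 to 0.971 CPM in AJ and from 0 to 0.261 CPM in NOD (2.85 ± 0.64, adjusted p = 0.000739). Chrna1, the receptor's alpha subunit, was higher in AJ without overlap (0.61 ± 0.18, adjusted p = 0.0110), and not called without the 3 libraries high in hepatocyte markers (0.52, adjusted p = 0.0782). Ache, acetylcholinesterase, had medians of 29.6 CPM in AJ and 14.8 CPM in NOD without overlap (0.91 ± 0.21, adjusted p = 0.00121). Gadd45a, a stress gene induced by denervation, went the other way, from 5.78 to 15.2 CPM in AJ and from 30.9 to 91.8 CPM in NOD (-2.23 ± 0.26, adjusted p = 6.56e-10).

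Myosins of immature fibres were higher in AJ. Myh8, the perinatal myosin, ran from 8.63 to 20.4 CPM in AJ and from 3.01 to 6.36 CPM in NOD (1.93 ± 0.24, adjusted p = 4.81e-09). Myh3, the embryonic myosin, overlapped between strains but was called (1.20 ± 0.30, adjusted p = 0.00280). Tmem8c, or myomaker, the membrane protein that fuses myoblasts, ran from 0.775 to 1.61 CPM in AJ and from 0.029 to 0.179 CPM in NOD (3.65 ± 0.68, adjusted p = 4.38e-05). Its NOD level rested on 19 counts over 7 libraries, against 348 in AJ. Igf2, a fetal growth factor, had AJ values from 40.8 to 83.6 CPM and NOD values from 14.96 to 20.8 CPM (1.60 ± 0.15, adjusted p = 2.25e-12). The AJ mean of Igf2 was the highest of the 8 strains and the NOD mean the lowest. Pax7, Myod1 and Myog, which mark satellite cells and their descendants, did not pass the test.

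**Figure D4:**
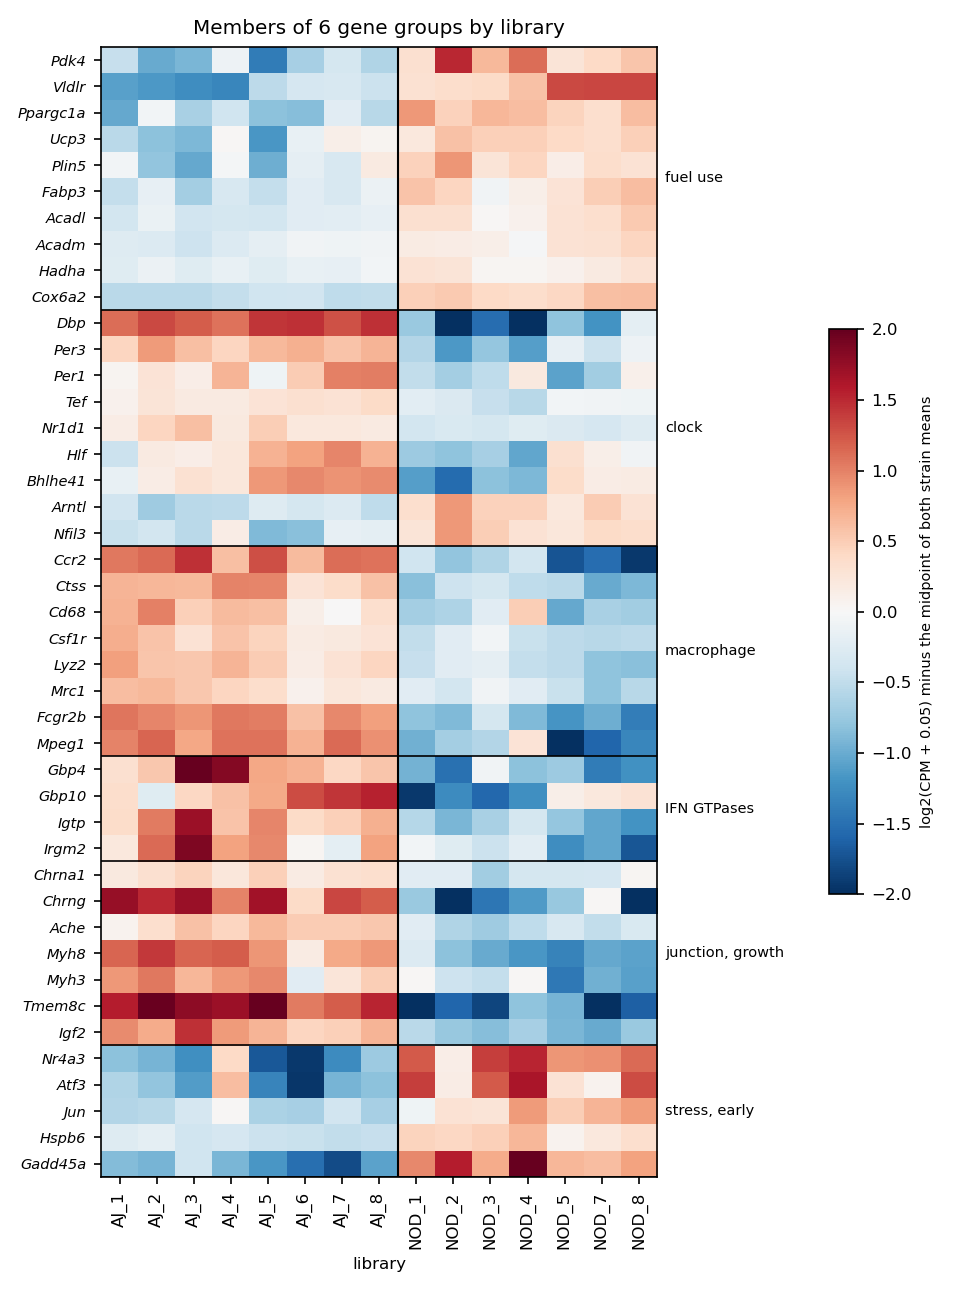
Log2(CPM + 0.05) in each library (columns) relative to the midpoint of the AJ and NOD means for members of 6 gene groups (rows), red above and blue below, with colours saturating at 2 units. The fuel use and stress rows are mostly blue in the 8 AJ columns and red in the 7 NOD columns, and the macrophage and junction rows the reverse. The rows were chosen with their values known, so their common colour is no result. Acsl6 and Ucp2, higher in AJ, and Lyve1, lower in AJ, are not shown. Gadd45a of the junction list stands among the stress rows, and Fcgr2b and Mpeg1 are not on the macrophage list.

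Most macrophage and monocyte markers were higher in AJ. Of 23 tested members 15 were higher in AJ and 2 higher in NOD (73.9% called, beside 18.4% of all genes). The summed level of the list ran from 239 to 380 CPM in AJ and from 145 to 222 CPM in NOD without overlap. In these bulk samples more cells of a type and more RNA per cell cannot be told apart. Csf1r, the receptor of macrophage colony-stimulating factor, ran from 26.6 to 39.5 CPM in AJ and from 16.2 to 22.8 CPM in NOD (0.81 ± 0.19, adjusted p = 0.000964). Lyz2, lysozyme, had medians of 82.4 CPM in AJ and 41.1 CPM in NOD without overlap (0.99 ± 0.30, adjusted p = 0.0147). Ccr2, the receptor that brings monocytes into tissue, ran from 3.45 to 6.31 CPM in AJ and from 0.555 to 1.73 CPM in NOD (2.04 ± 0.45, adjusted p = 0.00053). Mrc1, a mannose receptor of resident macrophages, was higher in AJ by 0.76 ± 0.18 (adjusted p = 0.00129), whereas Lyve1, a hyaluronan receptor of some of these cells and of lymph vessels, was lower (-0.66 ± 0.21, adjusted p = 0.0184). Lyve1 lost its call when the 3 libraries with over 1500 CPM of hepatocyte markers were left out (adjusted p = 0.157). The other member higher in NOD was a second, barely expressed Itgam identifier (ENSMUSG00000108596), while the main one (ENSMUSG00000030786) was higher in AJ by 1.08 ± 0.30. The complement genes C1qa, C1qb and C1qc, made by macrophages, did not pass the test.

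Other immune genes named for the size of their difference were also higher in AJ. Fcgr2b, the inhibitory antibody receptor, ran from 7.59 to 10.6 CPM in AJ and from 1.90 to 3.90 CPM in NOD (1.84 ± 0.29, adjusted p = 1.98e-06). Mpeg1, a pore-forming protein of macrophages, had medians of 17.0 CPM in AJ and 4.21 CPM in NOD, and its highest NOD value, 10.01 CPM, came from NOD replicate 4 (1.80 ± 0.37, adjusted p = 0.000172). Capg, a capping protein of actin that macrophages express, ran from 9.36 to 12 CPM in AJ and from 1.67 to 4.45 CPM in NOD (2.15 ± 0.21, adjusted p = 2.03e-12). Tnfsf10, the death ligand TRAIL, had medians of 14.8 CPM in AJ and 3.49 CPM in NOD (2.26 ± 0.33, adjusted p = 3.11e-07). All 4 genes kept every AJ library above every NOD library.

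Differences of interferon-related genes were mostly above 0, in 29 of 32 interferon-stimulated genes and in 17 of 19 of the GTPases below. Of 32 interferon-stimulated genes 6 were called higher in AJ and 0 higher in NOD by edgeR, 18.8% beside 18.4% of all genes. Without NOD replicate 5, 3 were higher in AJ. DESeq2 called 6 and limma 5, and 11 had an unadjusted p under 0.05. Of 19 guanylate-binding proteins and immunity-related GTPases, which act against microbes inside cells, 8 were higher in AJ and 2 in NOD. Gbp4 ran from 10.02 to 45.4 CPM in AJ and from 2.83 to 7.68 CPM in NOD (2.06 ± 0.39, adjusted p = 5.41e-05). Igtp, or Irgm3, ran from 6.71 to 17.2 CPM in AJ and from 2.26 to 4.09 CPM in NOD (1.62 ± 0.24, adjusted p = 6.29e-07). Its neighbour Irgm2 overlapped slightly (1.45 ± 0.26, adjusted p = 2.48e-05), and AJ replicate 3 held the highest value of both, 17.2 and 33.6 CPM. Gbp4 shares annotated sequence with Gbp8 and Gbp9, and Igtp with Irgm2, so their counts are uncertain. The 2 members higher in NOD, Gvin1 and the second Gbp6 identifier, turned to 0.55 and 0.46 once reads of near-identical copies were added, with adjusted p of 0.115 and 0.288.

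The promoters of 3 of these GTPases are shown because they hold the letters that interferon regulatory factors bind. They are again 250 bases before the RefSeq start on GRCm38.p6, 5′ to 3′ on the gene's strand, with the interferon response letters, GAAA, 2 bases of any kind and GAAA, in capitals on either strand. Igtp and Irgm2 lie side by side on chromosome 11 and hold the same letters, and Gbp3 holds 2 overlapping matches on the opposite strand.
Igtp, chr11:58199306-58199555, plus strand: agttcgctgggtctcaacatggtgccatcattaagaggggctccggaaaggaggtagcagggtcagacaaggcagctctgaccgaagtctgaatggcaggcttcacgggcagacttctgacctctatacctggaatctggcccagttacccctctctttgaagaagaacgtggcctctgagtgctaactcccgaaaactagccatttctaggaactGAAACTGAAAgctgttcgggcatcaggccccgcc
Irgm2, chr11:58214727-58214976, plus strand: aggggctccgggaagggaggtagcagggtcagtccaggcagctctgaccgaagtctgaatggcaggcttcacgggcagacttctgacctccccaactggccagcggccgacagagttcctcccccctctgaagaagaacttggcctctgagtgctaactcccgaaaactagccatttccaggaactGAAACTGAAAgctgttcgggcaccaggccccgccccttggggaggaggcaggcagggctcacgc
Gbp3, chr3:142559794-142560043, plus strand: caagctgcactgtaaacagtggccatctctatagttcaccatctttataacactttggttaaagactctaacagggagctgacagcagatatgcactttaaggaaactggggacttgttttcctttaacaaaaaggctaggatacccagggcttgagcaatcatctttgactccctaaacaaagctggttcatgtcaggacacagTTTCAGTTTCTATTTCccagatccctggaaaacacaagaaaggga
The letters occurred in 2.98% of the 32851 windows. They stood in 4 of 5 matched promoters of list members higher in AJ and in 5 of 5 matched promoters of members that were not called.

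Antigen presentation genes had 8 of 25 members higher in AJ and 0 higher in NOD by edgeR, with a median of 0.71. DESeq2 called 12 and limma 11, and 14 had an unadjusted p under 0.05. The count was 4 without NOD replicate 5 or 7 and 5 without AJ replicate 3 or NOD replicate 8. H2-Ab1, the class II beta chain, ran from 11.01 to 18.5 CPM in AJ and from 2.55 to 7.52 CPM in NOD without overlap (1.68 ± 0.56, adjusted p = 0.0275), and lost its call without any 1 of NOD replicates 5, 7 and 8 (adjusted p up to 0.061). H2-Ea-ps, the class II E alpha gene, named a pseudogene because it is not expressed in the reference strain, ran from 3.05 to 5.39 CPM in AJ and from 0 to 0.299 CPM in NOD (5.31 ± 0.84, adjusted p = 2.1e-06). B2m, the class I light chain, did not pass the test (0.26 ± 0.19, adjusted p = 0.402). How reads from divergent class I and class II alleles mapped to the reference genome was not tested.

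Of the lymphocyte markers, Ighm, the immunoglobulin mu chain, averaged 89.1 CPM in AJ and 89.4 CPM in NOD, and the summed list ran from 59.1 to 107 CPM in AJ and from 44.0 to 133 CPM in NOD. The other 16 tested members averaged at most 0.445 CPM, the AJ mean of Igkc: Cd3e of T cells averaged 0.0632 CPM in AJ and 0.0637 CPM in NOD, and Cd79a of B cells 0.0267 and 0.0306 CPM. None of 17 tested members was called by edgeR, DESeq2 or limma, and 0 had an unadjusted p under 0.05. Of 12 endothelial markers 6 were higher in NOD and 0 higher in AJ by edgeR, DESeq2 and limma also calling 6 each, and 9 at an unadjusted p under 0.05. Kdr, the main receptor for vascular growth factor, had medians of 44.5 CPM in AJ and 73.2 CPM in NOD and overlapped slightly (-0.59 ± 0.10, adjusted p = 8.35e-06). Flt1, a second receptor for the same factor, ran from 51.8 to 61.3 CPM in AJ and from 63.0 to 89.3 CPM in NOD (-0.41 ± 0.09, adjusted p = 0.000925). The summed endothelial level ran from 381 to 417 CPM in AJ and from 450 to 543 CPM in NOD without overlap. Of 21 fibroblast and matrix genes 3 were higher in AJ, among them Lum, the collagen-binding lumican (0.91 ± 0.22, adjusted p = 0.00174), and Pdgfra, a receptor that marks muscle's fibro-adipogenic cells (0.44 ± 0.09, adjusted p = 0.000128). The count of 3 is 14.3%, beside 18.4% of all genes. It was 5 when those 3 libraries with over 1500 CPM of hepatocyte markers were left out. Tendon, nerve, hepatocyte and keratinocyte lists had 0 members called by edgeR, DESeq2 or limma, and 0, 1, 0 and 0 members at an unadjusted p under 0.05. With Xist and Ddx3y as covariates, 6 of the 12 hepatocyte markers were called higher in NOD.

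The genes with the largest or most certain differences were mixed in function. Stk33, a serine/threonine kinase (ENSMUSG00000031027, chr7:109279223-109439081, minus strand), was carried by 4 counts over all 8 AJ libraries and ran from 16.7 to 24.98 CPM in NOD. The fitted difference of -10.21 ± 0.76 (adjusted p = 1.23e-16) depends on the small AJ count. Tmem132d, a transmembrane protein (ENSMUSG00000034310, chr5:127781630-128433077, minus strand), likewise had 6 counts in AJ and ran from 12.2 to 25.09 CPM in NOD (-9.52 ± 0.39, adjusted p = 4.73e-28). Snph, syntaphilin, which anchors mitochondria on microtubules in axons (ENSMUSG00000027457, chr2:151590549-151632593, minus strand), ran from 0.478 to 1.18 CPM in AJ and from 14.3 to 19.8 CPM in NOD (-4.33 ± 0.19, adjusted p = 9.67e-27). Igfn1, a muscle protein of the Z-disc region, and Asb15, a muscle ubiquitin ligase adaptor, were 4.36-fold and 4.30-fold lower in AJ, without overlap. Rbp7, a retinol-binding protein, was 5.60-fold lower in AJ (-2.49 ± 0.25, adjusted p = 1.31e-11).

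Higher in AJ were Osbpl3, an oxysterol-binding protein of membrane contacts (ENSMUSG00000029822, chr6:50293330-50456201, minus strand), and Foxo6os, a noncoding transcript named for Foxo6. Osbpl3 ran from 32.1 to 45.6 CPM in AJ and from 2.96 to 10.3 CPM in NOD (2.92 ± 0.18, adjusted p = 1.96e-19). Foxo6os ran from 8.83 to 12.8 CPM in AJ and from 0.277 to 0.906 CPM in NOD (4.23 ± 0.36, adjusted p = 1.63e-14). Among the most certain calls, Glo1, the glyoxalase that detoxifies methylglyoxal and is known to vary in copy number among mouse strains, had medians of 275 CPM in AJ and 121 CPM in NOD (1.19 ± 0.07, adjusted p = 1.02e-20). Desi1, a protease that acts on SUMO, was higher in AJ (1.33 ± 0.08, adjusted p = 5.63e-21), and the NOD mean was below all other strains. Dnajc10, a disulfide reductase of the endoplasmic reticulum (-1.19 ± 0.05, adjusted p = 2.78e-26), Glrx2, the mitochondrial glutaredoxin (-1.02 ± 0.06, adjusted p = 3.91e-21), and Atp6v1g1, a subunit of the proton pump of lysosomes (-1.10 ± 0.07, adjusted p = 7.47e-20), were lower in AJ without overlap.

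Some large differences concerned genes with near-identical copies and are uncertain. Hist2h2aa1 was higher in AJ by 3.33 and its twin Hist2h2aa2 was at -7.49, and with all copies added both came to -0.18 (adjusted p = 0.605). Hba-a1, an alpha globin, came to -0.76 (adjusted p = 0.0343) from -7.48 once its copy Hba-a2 was added. Myh6, the cardiac myosin, was at 2.19 alone and at 0.10 (adjusted p = 0.839) with Myh7 added. Hspa1b, the inducible heat shock protein, was at -1.98 alone and at -1.30 (adjusted p = 0.114) with Hspa1a. It was also not called without the libraries high in hepatocyte markers (-1.88, adjusted p = 0.0623). Trim12c remained higher in AJ with its copies (1.38).

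Of 20 tested genes with known variants among inbred strains, 5 were higher in AJ and 3 higher in NOD. That is 40.0%, beside 18.4% of all genes. The count of 5 was 3 without NOD replicate 7 or 8. Besides Dysf, Glo1 and H2-Ea-ps, Fcgr1, the high-affinity antibody receptor, was higher in AJ (1.49 ± 0.46, adjusted p = 0.0166), with levels under 1 CPM in every library. Slc11a1, a metal transporter of phagosomes, was higher in AJ (0.52 ± 0.17, adjusted p = 0.0259), a call lost without any 1 of NOD replicates 1, 7 and 8. Mx1 was also higher in AJ (1.59, adjusted p = 0.0325), at means of 0.295 CPM in AJ and 0.0929 CPM in NOD. Its call was lost in 10 alternatives, among them limma (adjusted p = 0.196) and the addition of its copy Mx2 (0.72, adjusted p = 0.135). Cd101, an inhibitory receptor studied as a diabetes candidate in NOD mice, was at 0 to 0.221 CPM in AJ and 0.323 to 0.834 CPM in NOD (-2.89 ± 0.78, adjusted p = 0.00506). Nnt, the proton-pumping transhydrogenase deleted in part in some B6 lines, did not pass the test (-0.03 ± 0.12, adjusted p = 0.894). Its level ran from 131 to 164 CPM in AJ and from 126 to 170 CPM in NOD.

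For the 777 genes called at 1 log2 unit or more, the AJ and NOD means were set beside the means of the other 6 strains, as a description. The AJ mean alone lay outside the range of the other strains for 256 genes (32.9%), the NOD mean alone for 196 (25.2%), both for 85 (10.9%) and neither for 240 (30.9%). Over all genes tested these shares were 18.4%, 12.5%, 7.24% and 61.8%. For 46 of the 85 genes AJ was above and NOD below all other strains, and for 31 the order was reversed. Dysf, Osbpl3 and Dbp belong to the genes in which AJ alone lay outside the other strains. Desi1 and Tmem132d belong to those in which NOD alone did, with a NOD mean of 4.44 CPM for Desi1 against 11.1 to 18.7 CPM in the other 6 strains. Vldlr and Igf2 lay outside in both strains, at opposite ends. So did Cox6a2, which at -0.97 is not among the 777. Asb15 lay outside in neither: its means of 25.4 CPM in AJ and 109 CPM in NOD fell between 18.2 CPM in PWK and 116 CPM in B6.

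**Figure D5:**
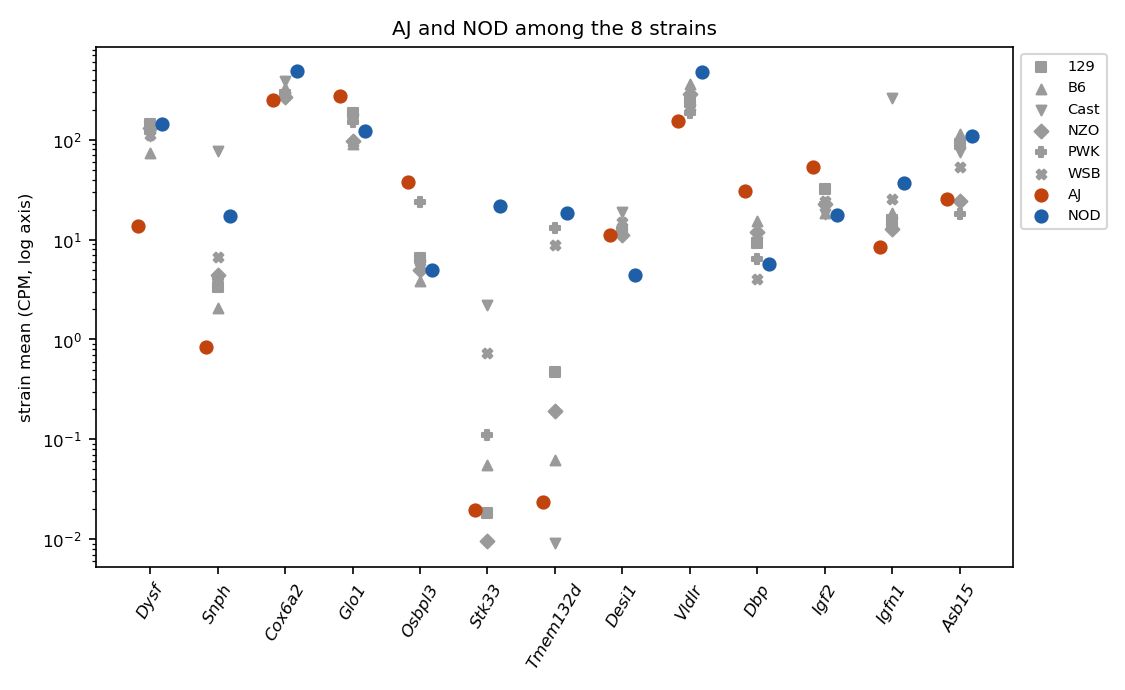
Strain means in CPM on a log axis for 13 genes, with AJ in orange, NOD in blue and the other 6 strains in grey. AJ lies below all other strains for Dysf, and AJ and NOD stand at opposite ends of the 8 strains for Cox6a2, Vldlr and Igf2.

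The share of tested genes that were called ran from 13.3% on chromosomes 9 and X to 22.9% on chromosome 18. Among 239 windows of 10 Mb with at least 20 tested genes, the median share called was 17.5%. The highest was 48.0%, 12 of 25 genes between 10 and 20 Mb of chromosome 12. That window held Odc1, the first enzyme of polyamine synthesis (-1.59 ± 0.38, adjusted p = 0.00126, means of 56.6 CPM in AJ and 171 CPM in NOD), Lpin1, and Smc6, a subunit of a DNA repair complex, which was higher in AJ (0.88 ± 0.07, adjusted p = 1.77e-16). Between 140 and 150 Mb of chromosome 4, 41 of 102 genes (40.2%) were called, 18 of them higher in AJ, among them Dffa, an inhibitor of the apoptotic DNase, lower in AJ (-1.29 ± 0.14, adjusted p = 2.07e-10). The lowest share was 2.13%, 1 of 47 genes between 40 and 50 Mb of chromosome 10.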

How the data were processed

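Muscle RNA of 61 libraries was measured by polyA-selected RNA-seq, and 8 AJ libraries were compared with 7 NOD libraries. Per the labels' protocols, frozen tissue was pulverised, extracted with TRIzol and made into KAPA mRNA HyperPrep libraries. The submitters' processing notes name GRCm38 and DESeq2. The aligner, the counter and the use of strand were not given in the sources used here. The authors deposited expected counts per gene (80.4% whole values; genes with at least 1 count in 30 or more libraries). Variance-stabilised log2 values were also deposited by the authors, with settings that were not stated. Counts were rounded and tested with edgeR 4.0.16 (quasi-likelihood F test, 1 mean per strain over all 61 libraries, TMM, filterByExpr, Benjamini-Hochberg threshold 0.05), with limma 3.58.1 and DESeq2 1.42.0 as alternatives. Standard errors are the size of the log2 difference over the root of F. In simulated data of 16435 genes for this comparison the test recovered 70.0% of 1.5-fold increases, 88.0% of 2-fold increases and 55.3% of 2-fold decreases, with 5 false calls. Near-identical copies were found with blastn 2.17.0 (at least 95% identity over 200 bases). Of 130 genes named by the rule, 33 overlapped exons of genes on the opposite strand and 15 those of genes on the same strand. Cox6a2, Dbp, Gadd45a, Stk33, Desi1 and Hspb6 are among the former and Capn3 among the latter. The part of reads from overlapping genes in their counts was not tested.

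The comparison and the gene lists were chosen with earlier results of these data known. Named genes had an adjusted p under 0.05, a mean of at least 5 CPM and an established symbol: the 15 largest differences each way, the 10 largest F, up to 2 members of each list per direction (at least 1 CPM), and all known strain variants. Other list members, library check genes and window genes were named after their values were seen. Some genes are not reported here. Alternatives were another scaling, filter, tool, sample set, covariates, copies added, and each library left out.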

Additional observations from a re-analysis of the deposited data

Results flagged for a closer look

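In 340 groups checked, each the values of 1 gene in 1 strain, 37 held a highest or lowest library with a wide gap to the rest. The limit flags about 1 in 20 groups of normally distributed values. Some genes, Flnc, Ahnak, Mt2 and Ankrd1 among them, were named after their values were seen. The 37 therefore cannot be set against that rate. NOD replicate 4 gave 11 of the 37. In that library Flnc was at 4353 CPM, Ahnak at 2538 CPM, Trim63 at 1098 CPM, Dysf at 234 CPM, Trim72 at 223 CPM, Mt2 at 142 CPM and Ankrd1 at 62.8 CPM, all the highest of NOD. Osbpl3 at 10.3 CPM, Mpeg1 at 10.01 CPM and Cd68 at 6.69 CPM were also its highest NOD values, and Cd59a at 26.1 CPM its lowest. Flnc differed by -0.52 (adjusted p = 0.179) with this library and by -0.00 (adjusted p = 0.999) without it.

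AJ replicate 4 held the highest AJ values of the early response genes Jun (111 CPM), Nr4a3 (33.96 CPM) and Atf3 (19.5 CPM). AJ replicate 3 held the highest AJ values of Igf2 (83.6 CPM), Irgm2 (33.6 CPM), Igtp (17.2 CPM) and Rtp4 (2.64 CPM), and the lowest of Myh2 (2344 CPM). NOD replicate 3 held the highest NOD values of Fasn (255 CPM), Adipoq (64.6 CPM), Gbp4 (7.68 CPM), Ifit3b (0.999 CPM) and Ucp1 (0.562 CPM). NOD replicate 2 held those of Nfil3 (54.2 CPM), Arntl (46.5 CPM), Plin5 (26.8 CPM) and Syt7 (5.46 CPM). NOD replicate 5 held those of Krt10 (55.9 CPM), Sirpa (15.7 CPM) and Hsd17b7 (14.2 CPM). NOD replicate 1 held the highest NOD value of Myh8 (6.36 CPM). Among AJ libraries, replicate 8 was highest for Sspn (104 CPM) and Glrx2 (14.6 CPM), replicate 6 for Krt10 (16.5 CPM), replicate 2 for Gvin1 (1.44 CPM) and replicate 1 for Stk33 (0.132 CPM).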

How the results depend on the processing

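In 3 settings a summary count moved by more than 1.5 times. Fitting only the AJ and NOD libraries gave 5055 called genes, 2449 higher in AJ and 2606 higher in NOD, and 65 of 79 oxidative phosphorylation genes. A stricter filter on low counts gave 440 genes at 1 log2 unit or more and 152 genes with AJ alone outside the other strains. The stabilised values with limma gave 156 genes at 1 log2 unit or more. The cause was not tested. DESeq2 called 3378 genes, and Xist and Ddx3y as covariates gave 3511. Leaving out each library in turn gave 2598 to 2890 called genes, 1193 to 1413 higher in AJ, 1360 to 1607 higher in NOD and 709 to 800 at 1 log2 unit or more. It gave 232 to 261 genes with AJ alone outside the other strains, 40.0% to 48.0% in the densest window and 1876 to 2126 genes without overlap. With the replicate number as a block 3156 genes were called, and Hdac4 (adjusted p = 0.0591) and Per1 (0.0550) lost their calls. Deviations of same-numbered AJ and NOD libraries correlated between -0.39 and 0.61, so the numbers were not taken as pairs. With near-identical copies added, Gvin1 (0.55), Hist2h2aa1 (-0.18) and Gbp6 ENSMUSG00000104713 (0.46) changed sign. Of 118 called named genes, 81 lost their call in none of the alternatives run for them. Copies were added for the genes that have them, and the stricter filter removed some genes. Genes under 1 CPM, such as Chrng and Cd101, rest on few counts.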

Other observations

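Some transcripts were close to absent in 1 strain, with a mean of at most 0.1 CPM there and at least 1 CPM in the other. There were 17 such genes in AJ, 9 of them protein-coding, and 6 in NOD, 5 of them protein-coding. Besides Stk33 and Tmem132d, those in AJ included Col4a6, a basement membrane collagen, and Mndal, an interferon-inducible DNA sensor family member. Mndal averaged 0.0295 CPM in AJ and 3.44 CPM in NOD, on 7 and 687 counts. Those in NOD included Tmem8c and Kcns1, a potassium channel subunit, on 426 counts in AJ and 12 in NOD. Whether reads from diverged alleles failed to map was not tested.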
